A study of Mus musculus with 46 samples.

Results

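The effect of losing Rbbp5 was examined in the inner cell mass (ICM) of single mouse blastocysts at embryonic day (E) 3.5, the group of cells inside the blastocyst that gives rise to the embryo. The libraries were chosen by their labels alone: 7 are Rbbp5 knockout (KO) and 7 are wild type (WT), 14 of the 46 samples of the series and 14 of its 33 RNA libraries. KO embryos came from wild-type zygotes injected with Cas9 mRNA and a guide RNA against Rbbp5, or from Rbbp5 flox/flox zygotes injected with Cre mRNA. The labels do not say which of these made a given library, nor whether WT zygotes were injected, and KO embryos made by Cas9 can be mosaic. Embryos of both groups were grown in KSOM medium, and the ICM was freed from the trophectoderm, the outer layer, by immunosurgery. RNA was copied by SMART-seq2, which amplifies full-length cDNA from few cells, and made into libraries with Tn5. For the difference between stages, 3 KO and 3 WT libraries of E5.5 epiblast, dissected by hand, were also used. Values are FPKM (fragments scaled to transcript length and library size), which hold no depth. The level of Rbbp5 was not analysed here, and KO labels therefore have no check by the target.

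Rbbp5 is a core subunit, with Wdr5, Ash2l and Dpy30, of the SET1 and MLL complexes, which methylate lysine 4 of histone H3, a mark of active promoters and enhancers. By E3.5 the embryo transcribes its own genome, and its ICM cells divide fast, which calls for protein synthesis, protein turnover and energy supply. In bulk ICM libraries, fewer cells of a type and less RNA per cell cannot be told apart. FPKM is also a share of each library, so a fall of most genes raises the values of genes that did not fall. Each change is therefore given in both forms: as measured on log2(FPKM + 1), and relative to the median gene, after taking from each library the offset of its median gene from the WT mean.

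Fewer genes were detected in the KO libraries. On average 4388 ± 659.9 genes reached 1 FPKM in KO ICM, against 5391 ± 219.8 in WT ICM (SD, n = 7 each; two-sided exact permutation test, p = 0.00117). KO 1, 4 and 6 had the fewest genes, 3628, 3642 and 3883, and the lowest offsets, -1.08, -1.19 and -0.98 on the log2 scale. The other KO libraries had offsets from -0.60 to -0.11 and WT libraries from -0.12 to 0.17. WT 1 stood apart by markers of trophectoderm: Krt8, Krt18 and Gata3 had 239.9, 294.5 and 186.5 FPKM there, against at most 64.5, 60.1 and 48.5 FPKM in any other WT library. Of the markers of the ICM lineages, Nanog, which marks the naive epiblast, was detected in every library but not at equal levels. KO 1, 2, 3 and 4, at 52.5, 42.9, 106 and 32.7 FPKM of Nanog, lay below every WT library. KO 5, 6 and 7, at 200, 124 and 221 FPKM, lay within the WT range of 113 to 350 FPKM. Other naive markers divided the KO libraries in other ways. Tbx3 lay below every WT library in KO 1, 2, 3, 4 and 6, Esrrb in KO 1, 2, 3 and 6, and Klf4 in KO 3 and 4. Fgf4 was highest in KO 1, at 13.3 FPKM, against at most 1.79 FPKM in WT ICM, and was 0 in KO 4 and 6. Gata6, which marks the primitive endoderm, ran from 4.46 to 30.7 FPKM in KO ICM and from 17.2 to 31.9 FPKM in WT ICM. Gata4, another of its markers, ran from 0 to 3.69 FPKM in KO ICM and from 0 to 5.45 FPKM in WT ICM. Pdgfra ran from 0.0144 to 7.82 FPKM in KO ICM and from 0.329 to 13.5 FPKM in WT ICM. Sox17 and Sox7, later factors of the primitive endoderm, were at 1.63 FPKM or less in every library. Adult alpha-globin, Hba-a1, had 0.375, 5.12 and 40.6 FPKM (lowest, median and highest) in KO ICM, against 0.222, 1.63 and 3.56 FPKM in WT ICM. The groups overlapped, and the gene was higher both ways, with a log2 change of 1.75 (SE 0.61, adjusted p = 0.0395) as measured and 2.40 (SE 0.65, adjusted p = 0.0184) relative to the median gene. Its call as measured ended when any of KO 1, 2 or 4 or WT 1, 2, 3, 4, 6 or 7 was left out, and without KO 1, 4 and 6 it had 1.04 as measured (adjusted p = 0.25) and 1.36 relative (adjusted p = 0.131). It was the 1 gene of the 6 tested blood and maternal tissue genes that changed both ways. Summed over the 10 genes of the blood and maternal tissue list, KO libraries had 24.7 to 80.3 FPKM and WT libraries 31.8 to 60.3 FPKM, and the part of these cells in any result was not tested.

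**Figure D1:**
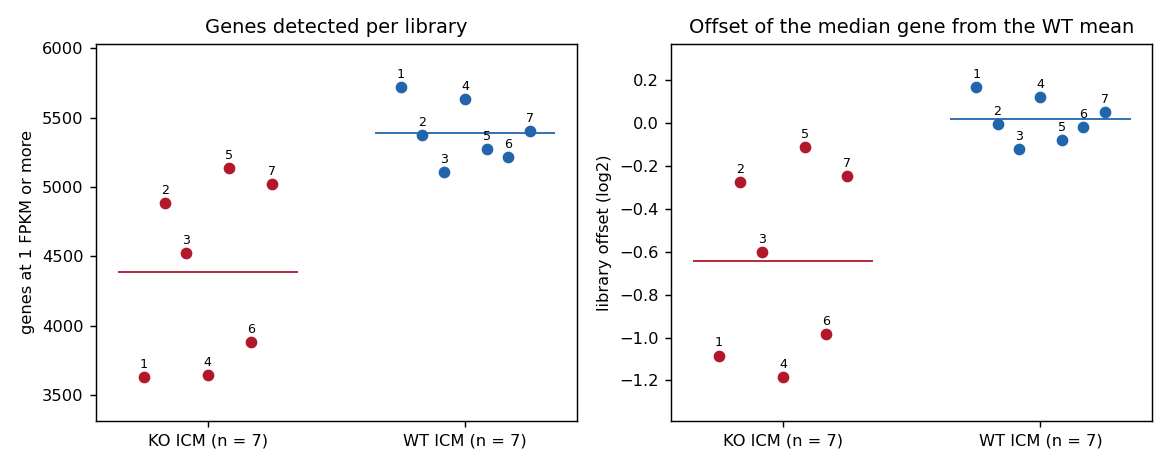
Genes at 1 FPKM or more (left panel) and the log2 offset of the median gene from the WT mean (right panel) in each KO and WT ICM library. Points are single embryos numbered as in the labels, and bars are group means. KO 1, 4 and 6, with 3628, 3642 and 3883 genes, lie below the other libraries in both panels.

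Many more genes were lower than higher in KO ICM as measured, and the balance turned once the shift of the median gene was taken off. Of 5443 genes tested, 187 (3.44% of all tested) were higher and 1353 (24.9%) lower as measured, with limma and Benjamini-Hochberg adjusted p under 0.05. Over all tested genes the median log2 change was -0.65, and median ratio scaling moved the relative median by -0.26. Relative to the median gene, 486 (8.93%) were higher and 280 (5.14%) lower, and this split moved with the scaling: 357 and 351 after quantile normalization, 414 and 468 after median ratio scaling, 519 and 136 with a single constant for all KO libraries, and 420 and 420 with a pseudocount of 5. Genes called in the same direction in both forms numbered 187 higher (3.44%) and 280 lower (5.14%), which means every gene called higher as measured and every gene called lower relative to the median. Together they are 8.58% of the genes tested, and are called changed both ways from here on. Another 1073 genes were lower as measured only and 299 higher relative only, and 0 genes were called in opposite directions.

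Of all tested genes, 70 (1.29%) had every KO library above every WT library and 181 (3.33%) had every KO library below. Among the genes changed both ways these were 67 of the 187 higher and 105 of the 280 lower. Without KO 1, 4 and 6, 77 genes were higher and 80 lower both ways, and 144 of the 467 kept their calls. When detected genes were added to the fit, 0 genes were called by limma, with 314 as measured and 315 relative at an unadjusted p under 0.05. Because that number differs between the groups, the part of library complexity and that of Rbbp5 in these changes cannot be told apart by such a fit. Leaving out single libraries gave between 308 genes that kept both calls (without WT 1; 318 without WT 4) and 448 (without KO 7). Of 151 named genes changed both ways, 106 kept both calls without any single library and 58 without KO 1, 4 and 6. Genes given below with all their values kept both calls without any single library, and the few that lost a call without KO 1, 4 and 6 have that value beside them.

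**Figure D2:**
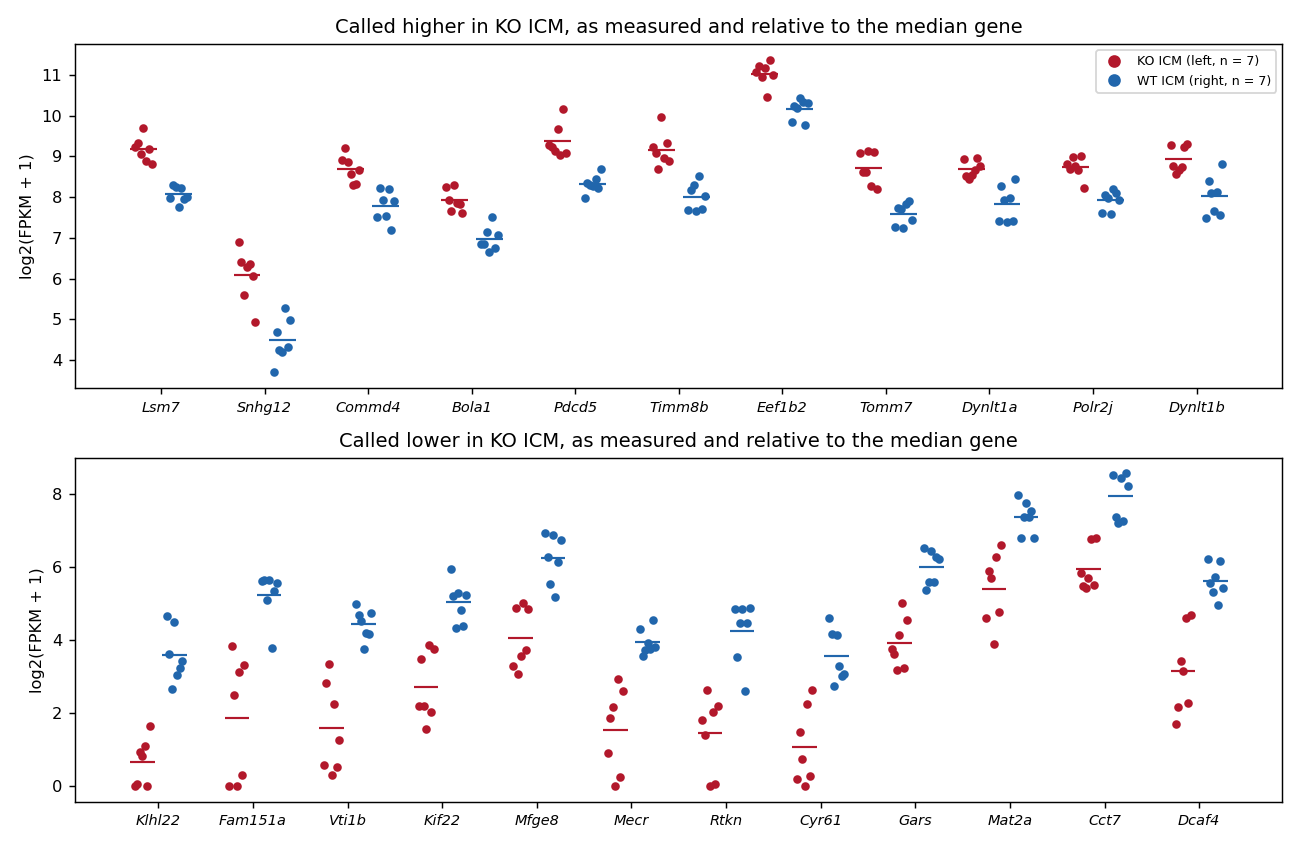
Level of 11 genes higher and 12 lower, among those with the smallest relative p of the abundant genes changed both ways, on log2(FPKM + 1). Points are single ICM libraries, KO left and WT right of each name, and bars are group means. Lsm7 shows no overlap between the groups above (1.10 as measured), and Klhl22 shows none, with KO below (-2.94).

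Genes were grouped into lists by function, 73 of them with at least 5 tested genes, and each list is described by its counts and median. The median lay above 0 in both forms in 3 lists, which were the respiratory chain, the histones and the small nucleolar RNA host genes. It lay below 0 as measured but above 0 relative in 36 lists, and below 0 in both forms in 34. The respiratory chain, taken only as a reference, had a median of 0.91 as measured and 1.57 relative, with 42 of 62 subunits higher and 1 lower both ways. Next to it the other lists held far fewer genes that were higher both ways, at most 7 in a list. Quantile normalization turned the sign of the relative median in 8 lists and median ratio scaling in 19, mostly lists near 0. Counts of a list are read against the shares of all tested genes: 3.44% higher both ways, 5.14% lower both ways and 24.9% lower as measured. A share near these says nothing particular of the list. Where another scaling, or leaving out KO 1, 4 and 6, moved a count by over 1.5 times, that value is given beside most counts.

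**Figure D3:**
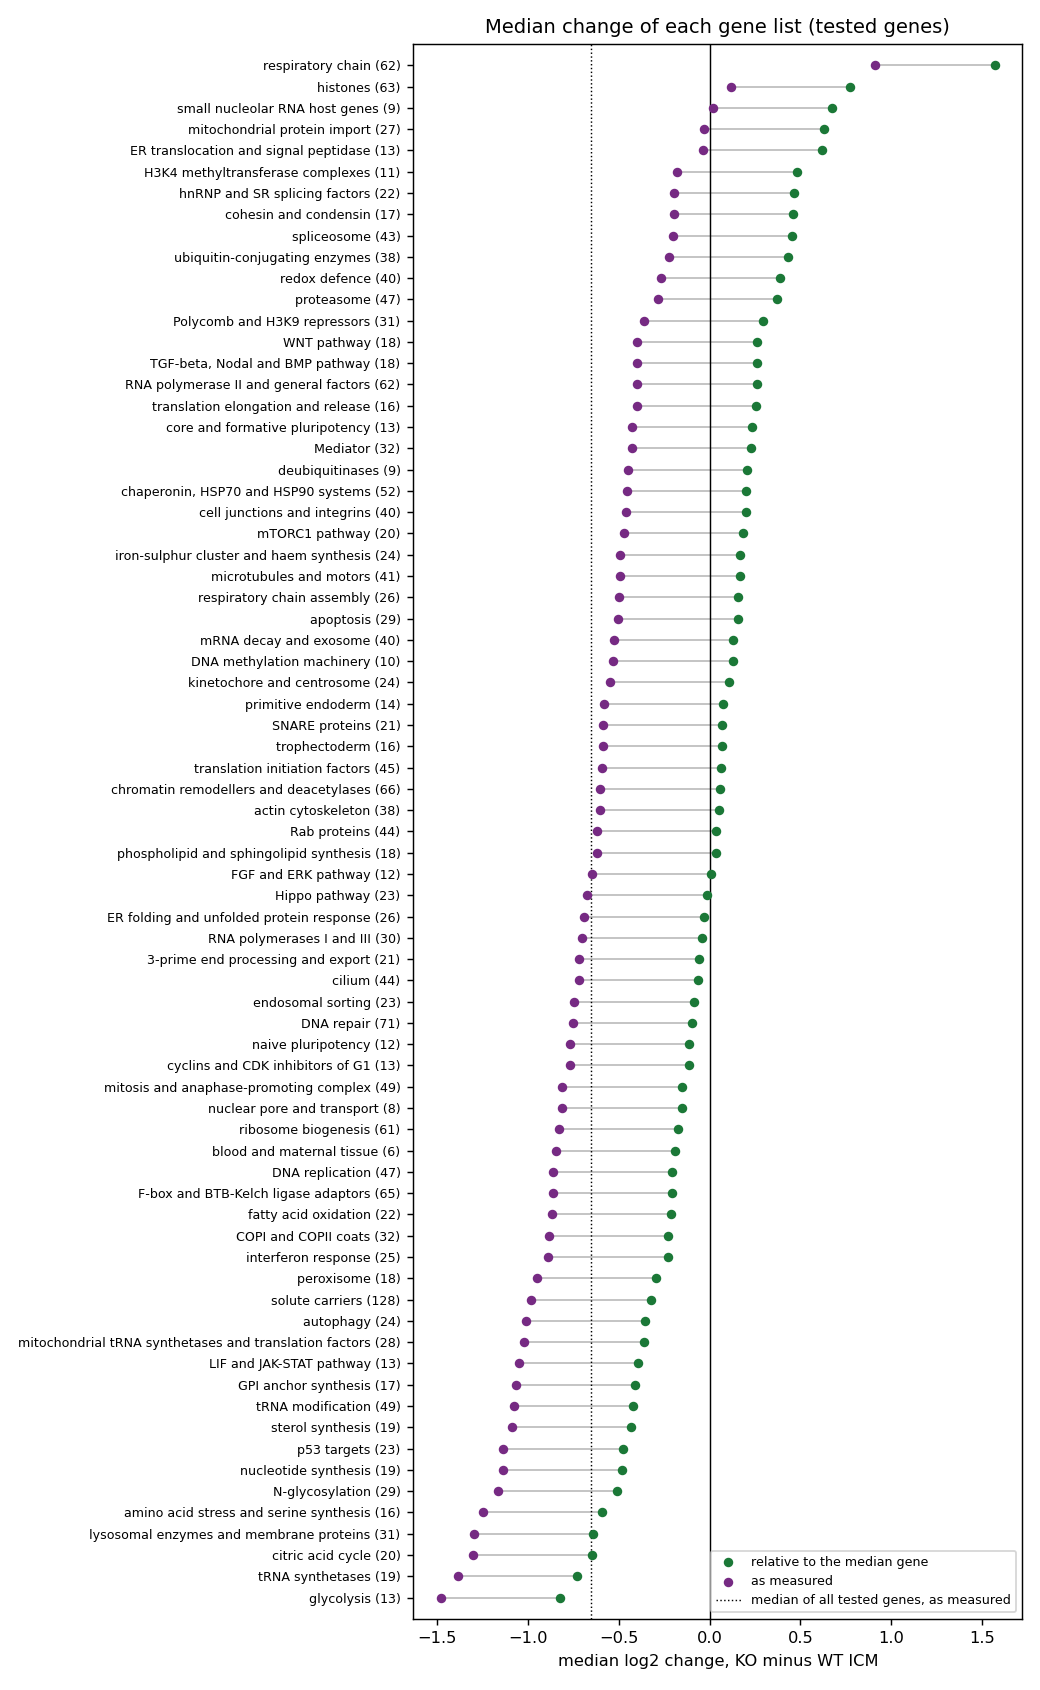
Median log2 change of each gene list, KO minus WT ICM, as measured (purple) and relative to the median gene (green), ordered by the relative value, with the number of tested genes in brackets. The dotted line is the median of all tested genes, -0.65. Glycolysis (-1.48 and -0.82) stands lowest and the respiratory chain (0.91 and 1.57) highest.

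In protein synthesis, the cytosolic tRNA synthetases, the enzymes that load each amino acid onto its tRNA, fell. Of 19 tested, 15 fell as measured, against 24.9% of all tested genes, and 7 fell both ways, against 5.14%, while 0 rose. Their median was -1.39 as measured and -0.73 relative, -0.74 after quantile normalization and -0.89 after median ratio scaling. The count lower both ways was 5 to 8 without any single library (5 without WT 1), and 4 lower under a single constant and 4 lower without KO 1, 4 and 6, where the relative median was -0.77. As measured, the list median of single libraries ran from -2.25 to -0.84 in KO ICM, against -0.51 to 0.59 in WT ICM, on the log2 scale around the WT mean of each gene, so the groups did not overlap. These medians hold the fall of the median gene too, since the library offsets were not taken off.

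Gars, glycyl-tRNA synthetase, had 8.09, 12.5 and 31.2 FPKM in KO ICM, against 40.6, 73.4 and 91.2 FPKM in WT ICM. For Gars, every KO library lay below every WT library, with a log2 change of -2.08 (SE 0.32, adjusted p = 0.00184) as measured and -1.42 (SE 0.29, adjusted p = 0.00422) relative to the median gene. Wars, tryptophanyl-tRNA synthetase, had 0.999, 5.71 and 12.5 FPKM in KO ICM, against 12.5, 31.6 and 48.3 FPKM in WT ICM. For Wars, the groups overlapped, with a log2 change of -2.37 (SE 0.44, adjusted p = 0.00251) as measured and -1.71 (SE 0.36, adjusted p = 0.00504) relative to the median gene. Farsa, a subunit of phenylalanyl-tRNA synthetase, had 0, 2.61 and 11.1 FPKM in KO ICM, against 7.97, 26.1 and 43.98 FPKM in WT ICM. For Farsa, the groups overlapped, with a log2 change of -2.70 (SE 0.52, adjusted p = 0.003) as measured and -2.04 (SE 0.44, adjusted p = 0.00626) relative to the median gene. Lowest, median and highest values are given in that order here and below. Kars, Hars, Mars and Farsb, for lysine, histidine, methionine and phenylalanine, also fell both ways, with log2 changes of -1.84, -1.89, -1.97 and -1.61 as measured. The tRNA synthetases of mitochondria, counted with the mitochondrial translation factors, had 11 of 28 lower as measured and 1 lower both ways (0 to 4 without any single library, 0 without KO 6 or WT 1, 4 or 7 and 4 without KO 4), with 2 lower after median ratio scaling, 0 lower under a single constant and 0 lower without KO 1, 4 and 6.

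Transcription of several tRNA synthetase genes is known to respond to amino acid shortage through ATF4, a transcription factor that binds with C/EBP partners to sequences of the type TGATGNAA. The promoter sequences below are shown because they carry that motif in the tRNA synthetase list. The bases before the start site of 4233 tested genes were searched on either strand, 250 bases a gene. The motif stood in 3 of 11 tRNA synthetase promoters and in 2 of 15 of the amino acid stress and serine synthesis list, against 2.27% of all. Each line gives a gene, the window on GRCm38.p6 (RefSeq) and the sequence, with the motif in capitals.
Gars, chr6:55037941-55038000, plus strand: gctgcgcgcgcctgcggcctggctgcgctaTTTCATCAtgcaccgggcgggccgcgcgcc
Aars, chr8:111033700-111033767, plus strand: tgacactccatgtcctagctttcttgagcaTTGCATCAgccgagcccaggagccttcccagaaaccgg
Tars, chr15:11399659-11399703, minus strand: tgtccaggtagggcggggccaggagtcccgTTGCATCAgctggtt
These matches read TTNCATCA, the reverse complement. Gars fell both ways. Aars, for alanine, had -0.69 as measured and -0.03 relative (adjusted p = 0.241 and 0.974), and Tars, for threonine, -1.07 as measured and -0.41 relative (adjusted p = 0.0524 and 0.472), so neither passed. Among all genes lower both ways 1.32% had the motif, and among those higher both ways 2.63%. The motif was chosen after several were looked at and the values were known.

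Within the rest of the translation machinery members moved in both directions. Of 45 initiation factors, Eif1, which scans for the start codon, rose both ways (0 such genes without KO 6 or WT 1 or 4). Another 5 fell both ways (2 to 6 without any single library, 2 without WT 1 or 6). For this list the counts were 0 higher and 8 lower after quantile normalization, 2 lower under a single constant and 0 higher and 1 lower without KO 1, 4 and 6. Eif3d, the cap-binding subunit of eIF3, had 17.3, 25.7 and 55.8 FPKM in KO ICM, against 59.3, 129 and 155 FPKM in WT ICM. For Eif3d, every KO library lay below every WT library, with a log2 change of -1.75 (SE 0.32, adjusted p = 0.00248) as measured and -1.09 (SE 0.25, adjusted p = 0.0083) relative to the median gene. Elongation and release factors had 3 of 16 higher both ways (3 without any single library) and 2 lower (0 to 3 without any single library, 0 without WT 1 or 6), but 0 higher and 4 lower after quantile normalization, 0 lower under a single constant and 1 higher and 0 lower without KO 1, 4 and 6. Eef1b2, the exchange factor that recharges elongation factor eEF1A, had 1394, 2147 and 2647 FPKM in KO ICM, against 876, 1211 and 1371 FPKM in WT ICM. For Eef1b2, every KO library lay above every WT library, with a log2 change of 0.87 (SE 0.15, adjusted p = 0.00232) as measured and 1.53 (SE 0.27, adjusted p = 0.00323) relative to the median gene. Eef1b2 had 0.27 relative (adjusted p = 0.181) after quantile normalization, so its relative call ended there. Naca and Btf3, which form the complex that guards new chains at the ribosome, passed in both forms. Naca had 0.53 as measured and 1.18 relative, and Btf3 0.49 as measured and 1.15 relative, but after quantile normalization their relative changes were -0.04 and -0.08, of the opposite sign. The median of the elongation list likewise was 0.26 relative and -0.21 after quantile normalization. Ribosome biogenesis had 7 of 61 genes lower and 0 higher both ways (5 to 9 without any single library, and 2 lower without KO 1, 4 and 6), with a median of -0.83 as measured and -0.17 relative, -0.34 after median ratio scaling. Rcl1, which cuts pre-ribosomal RNA, had 0.0558, 5.12 and 12.03 FPKM in KO ICM, against 16.9, 27.7 and 55.2 FPKM in WT ICM. For Rcl1, every KO library lay below every WT library, with a log2 change of -2.78 (SE 0.52, adjusted p = 0.00261) as measured and -2.13 (SE 0.48, adjusted p = 0.00755) relative to the median gene. Wdr74, a factor of large subunit maturation, had 1.82, 15.2 and 24.1 FPKM in KO ICM, against 31.4, 48.01 and 78.6 FPKM in WT ICM. For Wdr74, every KO library lay below every WT library, with a log2 change of -2.14 (SE 0.44, adjusted p = 0.00379) as measured and -1.48 (SE 0.36, adjusted p = 0.0115) relative to the median gene. Trmt112, the shared partner of several tRNA and rRNA methyltransferases, went the other way, with 0.75 as measured and 1.40 relative, though without KO 1, 4 and 6 it had 0.61 as measured (adjusted p = 0.063).

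Of carbon metabolism, the citric acid cycle, which feeds electrons to the respiratory chain, was lower. Of 20 tested enzymes of the cycle and of pyruvate dehydrogenase, 16 fell as measured and 6 both ways, and 0 rose. The median was -1.31 as measured and -0.65 relative, -0.81 after quantile normalization and -0.84 after median ratio scaling. As measured, the list medians of KO libraries, -1.88 to -0.43, overlapped those of WT libraries, -0.47 to 0.46, at their edge. The count lower both ways was 4 to 6 without any single library, with 2 lower under a single constant and 2 lower without KO 1, 4 and 6. Pdhx, the component that holds dihydrolipoamide dehydrogenase in pyruvate dehydrogenase, had 0.500, 4.08 and 5.28 FPKM in KO ICM, against 5.25, 13.7 and 17.8 FPKM in WT ICM. For Pdhx, the groups overlapped, with a log2 change of -1.99 (SE 0.43, adjusted p = 0.00503) as measured and -1.33 (SE 0.37, adjusted p = 0.02) relative to the median gene. Pdhx had -1.34 relative (adjusted p = 0.0513) under a single constant. Mdh2, malate dehydrogenase, and Idh3a and Idh3b, subunits of the NAD-dependent isocitrate dehydrogenase, also fell both ways, with log2 changes of -1.59, -1.60 and -1.75 as measured.

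Glycolysis had the lowest list median, -1.48 as measured and -0.82 relative, with 8 of 13 genes lower as measured and 2 lower both ways, a count of 1 to 5 without any single library, 1 without KO 4 or 6 or WT 1, 2, 4, 5 or 7 and 5 without KO 7, and 5 lower after quantile normalization, 1 lower under a single constant and 0 lower without KO 1, 4 and 6. Its relative median was -0.45 without KO 1, 4 and 6. The 2 genes lower both ways were the glucose transporters Slc2a1 and Slc2a8, and 0 enzymes of the pathway were called both ways. Slc2a1 lost its relative call without KO 3, 4 or 6 or WT 1, 2, 4, 5 or 7. Fatty acid oxidation had 3 of 22 lower both ways (1 to 4 without any single library, 1 without KO 6 or WT 1, 2, 4 or 7, and 1 lower under a single constant). Acaa1a, a peroxisomal thiolase, had 0, 0.189 and 2.08 FPKM in KO ICM, against 2.16, 5.89 and 13.6 FPKM in WT ICM. For Acaa1a, every KO library lay below every WT library, with a log2 change of -2.21 (SE 0.39, adjusted p = 0.00232) as measured and -1.55 (SE 0.35, adjusted p = 0.00786) relative to the median gene. Acaa1b is a near-identical copy of that gene, so reads may be split between them. Mecr, the last enzyme of mitochondrial fatty acid synthesis, had 0, 2.65 and 6.63 FPKM in KO ICM, against 10.8, 13.2 and 22.6 FPKM in WT ICM. For Mecr, every KO library lay below every WT library, with a log2 change of -2.42 (SE 0.45, adjusted p = 0.00266) as measured and -1.77 (SE 0.35, adjusted p = 0.00422) relative to the median gene. Mat2a, which makes S-adenosylmethionine, the methyl donor of histone and DNA methylation, had 13.9, 51.1 and 95.5 FPKM in KO ICM, against 109, 166 and 252 FPKM in WT ICM. For Mat2a, every KO library lay below every WT library, with a log2 change of -1.98 (SE 0.36, adjusted p = 0.00251) as measured and -1.33 (SE 0.27, adjusted p = 0.00424) relative to the median gene.

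Of the mitochondrial import machinery some subunits rose. Of 27 tested import genes, 7 were higher (4 to 8 without any single library, 4 without WT 1) and 1 lower both ways, with 3 lower after quantile normalization and 4 higher without KO 1, 4 and 6. The list median was -0.03 as measured and 0.63 relative, but 0.07 after quantile normalization and 0.39 without KO 1, 4 and 6. Split after the values were seen, the 8 small Tim chaperones and small Tom subunits had 5 higher both ways and a median of 0.67 as measured, and the 11 larger Tim and Tom proteins 0 higher, 1 lower and a median of -0.58. The small ones had 3 higher after quantile normalization and 3 higher without KO 1, 4 and 6, and the larger ones 3 lower after quantile normalization. Median gene span was 3.05 kb for the small ones and 14.1 kb for the larger ones, and its part in this split was not tested. Timm8b, a small Tim chaperone of the intermembrane space, had 409, 542 and 993 FPKM in KO ICM, against 202, 261 and 368 FPKM in WT ICM. For Timm8b, every KO library lay above every WT library, with a log2 change of 1.15 (SE 0.20, adjusted p = 0.00232) as measured and 1.80 (SE 0.31, adjusted p = 0.00323) relative to the median gene. Tomm7, a small subunit of the outer membrane pore, had 292, 391 and 559.9 FPKM in KO ICM, against 151, 209.6 and 238 FPKM in WT ICM. For Tomm7, every KO library lay above every WT library, with a log2 change of 1.12 (SE 0.19, adjusted p = 0.00222) as measured and 1.78 (SE 0.31, adjusted p = 0.00323) relative to the median gene. The pore itself, Tomm40, had -2.40 as measured and -1.75 relative and passed in both forms. Bola1, a mitochondrial protein of iron-sulphur cluster handling, had 195, 231 and 314 FPKM in KO ICM, against 98.8, 114 and 179.9 FPKM in WT ICM. For Bola1, every KO library lay above every WT library, with a log2 change of 0.95 (SE 0.18, adjusted p = 0.003) as measured and 1.60 (SE 0.28, adjusted p = 0.00323) relative to the median gene. Its relatives Bola2, with 0.94 as measured and 1.59 relative, and Bola3, with 0.71 as measured and 1.37 relative, passed too. Bola2 had 0.61 as measured (adjusted p = 0.121) and 0.93 relative (adjusted p = 0.0655) without KO 1, 4 and 6, and Bola3 lost its call as measured without WT 2 (adjusted p = 0.0501) and without WT 4 (adjusted p = 0.0606).

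Lysosomal genes were also lower. Of 31 tested enzymes and membrane proteins of the lysosome, the compartment that digests proteins, sugars and lipids, 18 fell as measured, 5 fell both ways and 0 rose. The median was -1.30 as measured and -0.64 relative, -0.69 and -0.91 after quantile normalization and median ratio scaling. The count lower both ways was 4 to 10 without any single library, 10 without KO 7, and 3 without KO 1, 4 and 6, where the relative median was -0.33. Ctsd, the aspartyl protease cathepsin D, had 33.8, 124 and 176 FPKM in KO ICM, against 253, 409.6 and 543 FPKM in WT ICM. For Ctsd, every KO library lay below every WT library, with a log2 change of -1.78 (SE 0.32, adjusted p = 0.00232) as measured and -1.13 (SE 0.27, adjusted p = 0.0105) relative to the median gene. Ctsz, the carboxypeptidase cathepsin Z, had 0.123, 3.49 and 15.3 FPKM in KO ICM, against 13.6, 44.8 and 72.2 FPKM in WT ICM. For Ctsz, the groups overlapped, with a log2 change of -2.93 (SE 0.60, adjusted p = 0.00366) as measured and -2.27 (SE 0.57, adjusted p = 0.013) relative to the median gene. Gaa, the enzyme that breaks down glycogen in lysosomes, had -2.45 as measured and -1.80 relative and lost both calls without KO 1, 4 and 6, with -1.33 as measured (adjusted p = 0.0605) and -1.01 relative (adjusted p = 0.12). Vma21, an assembly factor of the proton pump that acidifies lysosomes, had 55.1, 106 and 243 FPKM in KO ICM, against 29.5, 44.1 and 55.4 FPKM in WT ICM. For Vma21, the groups overlapped, with a log2 change of 1.38 (SE 0.28, adjusted p = 0.00383) as measured and 2.04 (SE 0.38, adjusted p = 0.00323) relative to the median gene. The other genes of the pump did not share this rise. Of the 4 tested genes of the vacuolar proton pump list, Vma21 alone rose, 2 fell as measured and 0 fell both ways. The list median was -1.17 as measured and -0.51 relative.

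TFEB and related factors are known to bind E-boxes of the type CACGTG before lysosomal genes, and the following sequences are shown because they hold that motif before genes that fell both ways. It stood in 8 of 22 promoters of the lysosomal list, against 10.4% of all 4233 promoters searched, 8.33% of those lower both ways and 7.24% of those higher both ways. CACGTG reads the same on either strand. Capitals mark it, on GRCm38.p6 (RefSeq).
Ctsd, chr7:142388037-142388077, minus strand: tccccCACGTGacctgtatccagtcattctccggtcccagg
Gaa, chr11:119267793-119267858, plus strand: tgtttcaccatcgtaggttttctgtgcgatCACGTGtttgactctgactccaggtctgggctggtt
Of the other lysosomal genes with the motif, Cln3, a membrane protein lost in a childhood storage disease, had -0.02 as measured and 0.63 relative (adjusted p = 0.959 and 0.164), and Ctsl, cathepsin L, -0.59 as measured and 0.06 relative (adjusted p = 0.0915 and 0.9). Ctsa, cathepsin A, was lower as measured alone, with -2.09 as measured and -1.43 relative (adjusted p = 0.0172 and 0.0639). Glb1, a galactosidase, had -1.44 as measured and -0.78 relative (adjusted p = 0.0815 and 0.346). Mcoln1, a cation channel, had -0.80 as measured and -0.14 relative, and Gla, another galactosidase, -0.67 as measured and -0.01 relative (adjusted p = 0.264 and 0.178 as measured). Of the 8 lysosomal genes that hold the motif, Ctsd and Gaa thus fell both ways and the others did not. By CpG content, which marks promoters that H3K4 methylation usually covers, the groups were close: a median of 15 CpG in 152 promoters of genes higher both ways, 16 in 228 of those lower both ways and 17 in 3853 of the others. Over bins of all promoters from the fewest to the most CpG, the median change was -0.71, -0.73, -0.71, -0.63 and -0.51 as measured. Relative to the median gene it was -0.05, -0.07, -0.05, 0.02 and 0.15, and a link to CpG content was not tested.

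In the secretory pathway, members moved in both directions. Of 13 genes for translocation into the endoplasmic reticulum (ER), 3 were higher both ways (2 to 3 without any single library) and 0 lower, with 1 lower after median ratio scaling and 1 higher without KO 1, 4 and 6. Sec61b, the small beta subunit of the translocation channel, had 301, 442 and 745 FPKM in KO ICM, against 162, 231 and 309 FPKM in WT ICM. For Sec61b, the groups overlapped, with a log2 change of 0.99 (SE 0.21, adjusted p = 0.00451) as measured and 1.65 (SE 0.33, adjusted p = 0.00422) relative to the median gene. N-glycosylation had 2 of 29 genes higher and 3 lower both ways, with 1 higher after quantile normalization, 1 lower under a single constant and 0 higher and 1 lower without KO 1, 4 and 6. Ost4, the smallest subunit of the oligosaccharyltransferase, had 557, 685 and 1005 FPKM in KO ICM, against 282, 396 and 513 FPKM in WT ICM. For Ost4, every KO library lay above every WT library, with a log2 change of 0.79 (SE 0.18, adjusted p = 0.00581) as measured and 1.45 (SE 0.29, adjusted p = 0.00422) relative to the median gene. Ddost, a larger subunit of the same enzyme, had 7.97, 19.2 and 56.7 FPKM in KO ICM, against 62.04, 90.99 and 103 FPKM in WT ICM. For Ddost, every KO library lay below every WT library, with a log2 change of -1.75 (SE 0.38, adjusted p = 0.00454) as measured and -1.09 (SE 0.27, adjusted p = 0.0122) relative to the median gene. Without KO 1, 4 and 6, Ost4 had 0.63 as measured (adjusted p = 0.0504), and Ddost had -0.73 relative (adjusted p = 0.0807). Ddost also had -1.09 relative (adjusted p = 0.0651) under a single constant. ER folding and the unfolded protein response had 0 of 26 higher and 5 lower both ways (1 to 5 without any single library, 1 without WT 4 or 7), with 1 lower under a single constant and 2 lower without KO 1, 4 and 6. Pdia6, a protein disulphide isomerase, had 2.02, 6.30 and 18.7 FPKM in KO ICM, against 25.1, 35.6 and 58.8 FPKM in WT ICM. For Pdia6, every KO library lay below every WT library, with a log2 change of -2.15 (SE 0.42, adjusted p = 0.00322) as measured and -1.49 (SE 0.34, adjusted p = 0.00829) relative to the median gene.

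Lists of traffic between compartments had 0 genes higher both ways. Lower both ways were 3 of 32 genes of the COPI and COPII coats (9.38%), 2 of 21 SNARE proteins (9.52%), 2 of 44 Rab proteins (4.55%) and 1 of 23 endosomal sorting genes (4.35%). These stand against 5.14% of all tested genes, and were 0, 1, 0 and 0 without KO 1, 4 and 6. As measured, the shares lower were 43.75%, 23.8%, 22.7% and 34.8% in that order, against 24.9% of all. The SNARE Vti1b, which serves fusion of late endosomes, had 0.245, 1.42 and 9.15 FPKM in KO ICM, against 12.5, 21.9 and 30.8 FPKM in WT ICM. For Vti1b, every KO library lay below every WT library, with a log2 change of -2.85 (SE 0.47, adjusted p = 0.00219) as measured and -2.20 (SE 0.40, adjusted p = 0.00323) relative to the median gene. Solute carriers, the largest list, had 42 of 128 lower as measured and 10 lower both ways (4 to 13 without any single library, 4 without WT 1), shares of 32.8% and 7.81%. The count was 17 lower after median ratio scaling, 4 lower under a single constant and 1 lower without KO 1, 4 and 6. Slc4a11, an ion transporter of the plasma membrane, had 0.810, 7.94 and 11.5 FPKM in KO ICM, against 13.1, 40.7 and 69.3 FPKM in WT ICM. For Slc4a11, every KO library lay below every WT library, with a log2 change of -2.49 (SE 0.46, adjusted p = 0.00251) as measured and -1.84 (SE 0.39, adjusted p = 0.00564) relative to the median gene.

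The proteasome, which degrades proteins tagged with ubiquitin, was split between its parts. Over the list, 5 of 47 genes were higher and 5 lower both ways, with lower counts of 3 to 7 without any single library, 3 without KO 3 or WT 1, 4, 6 or 7. This even split depended on the scaling, with 2 higher and 11 lower after quantile normalization, 1 lower under a single constant and 1 higher and 2 lower without KO 1, 4 and 6. Divided after the values were seen, the 16 subunits of the 20S core, the barrel that cuts proteins, had a median of 0.32 as measured and 0.98 relative, with 4 higher and 0 lower both ways. The 22 genes of the 19S particle, which unfolds the substrate, include its assembly factors Psmd5, Psmd9 and Psmd10. They had a median of -0.90 and -0.24, with 1 higher and 5 lower both ways. Median WT levels were 696 FPKM for the core and 200 FPKM for the 19S set, and the part of level in this split was not tested. The core had 1 higher and 1 lower after quantile normalization and 0 higher without KO 1, 4 and 6 and the 19S particle 10 lower after quantile normalization, 1 lower under a single constant and 2 lower without KO 1, 4 and 6. After quantile normalization the relative medians were -0.086 for the core and -0.73 for the 19S particle. There the median of the whole list was -0.19, where it was 0.37 with the library offsets. Psmd2, a scaffold subunit of the 19S base, had 9.02, 22.3 and 61.6 FPKM in KO ICM, against 53.1, 127 and 164 FPKM in WT ICM. For Psmd2, the groups overlapped, with a log2 change of -2.13 (SE 0.41, adjusted p = 0.00298) as measured and -1.47 (SE 0.30, adjusted p = 0.00455) relative to the median gene. Psma2, an alpha ring subunit of the core, had 304, 346 and 424 FPKM in KO ICM, against 176, 234 and 286 FPKM in WT ICM. For Psma2, every KO library lay above every WT library, with a log2 change of 0.65 (SE 0.16, adjusted p = 0.00794) as measured and 1.31 (SE 0.26, adjusted p = 0.00422) relative to the median gene, and without KO 1, 4 and 6 0.51 as measured (adjusted p = 0.0642). The 19S gene that rose was Shfm1, the small lid protein also called Sem1.

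Shfm1 had 999, 1566 and 2933 FPKM in KO ICM, against 663, 707 and 1009.9 FPKM in WT ICM. For Shfm1, the groups overlapped, with a log2 change of 1.14 (SE 0.22, adjusted p = 0.00303) as measured and 1.80 (SE 0.36, adjusted p = 0.00419) relative to the median gene. Among adaptors of ubiquitin ligases, 1 of 65 was higher and 6 lower both ways (1 to 2 without any single library, 2 without KO 5 or 7 for the higher, and 3 to 6 without any single library, 3 without WT 1 for the lower), with 3 lower under a single constant and 0 higher and 3 lower without KO 1, 4 and 6. Klhl22, an adaptor of the CUL3 ligase, had 0, 0.771 and 2.16 FPKM in KO ICM, against 5.32, 9.71 and 24.4 FPKM in WT ICM. For Klhl22, every KO library lay below every WT library, with a log2 change of -2.94 (SE 0.40, adjusted p = 0.00148) as measured and -2.28 (SE 0.36, adjusted p = 0.00323) relative to the median gene. Dcaf4, an adaptor of the CUL4 ligase, had 2.27, 7.94 and 24.8 FPKM in KO ICM, against 30.4, 46.2 and 73.6 FPKM in WT ICM. For Dcaf4, every KO library lay below every WT library, with a log2 change of -2.48 (SE 0.44, adjusted p = 0.00232) as measured and -1.82 (SE 0.37, adjusted p = 0.00448) relative to the median gene.

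Protein folding in the cytosol was also divided. All 7 tested subunits of CCT, the ring chaperonin that folds actin and tubulin, fell as measured, 4 of them both ways, with a median of -1.30. The 4 tested prefoldin genes, whose products hand clients to CCT, had 2 higher and 0 lower both ways and a median of 0.64. Counts both ways were 7 lower after quantile normalization, 1 lower under a single constant and 1 lower without KO 1, 4 and 6 for CCT, and 0 higher without KO 1, 4 and 6 for prefoldin. These subgroups were also chosen after the values were seen. Median WT levels were 295 FPKM for CCT and 54.8 FPKM for prefoldin, and the part of level in this split was not tested. Cct7, the eta subunit of CCT, had 42.3, 51.4 and 111 FPKM in KO ICM, against 146, 295 and 378 FPKM in WT ICM. For Cct7, every KO library lay below every WT library, with a log2 change of -2.003 (SE 0.30, adjusted p = 0.00184) as measured and -1.34 (SE 0.27, adjusted p = 0.00444) relative to the median gene. Pfdn5, a prefoldin subunit, had 346, 466 and 656 FPKM in KO ICM, against 234, 268 and 352 FPKM in WT ICM. For Pfdn5, the groups overlapped, with a log2 change of 0.73 (SE 0.17, adjusted p = 0.00606) as measured and 1.39 (SE 0.28, adjusted p = 0.00422) relative to the median gene, and without KO 1, 4 and 6 it had 0.53 as measured (adjusted p = 0.0564). Over the whole chaperone list 5 of 52 rose and 5 fell both ways, with higher counts of 2 to 5 without any single library, 2 without KO 1 or 4 or WT 1, 2, 4, 5 or 7. The lower counts were 2 to 5 without any single library, 2 without KO 3 or WT 6 or 7. Together there were 3 higher and 8 lower after quantile normalization, 2 lower under a single constant and 1 higher and 2 lower without KO 1, 4 and 6.

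**Figure D4:**
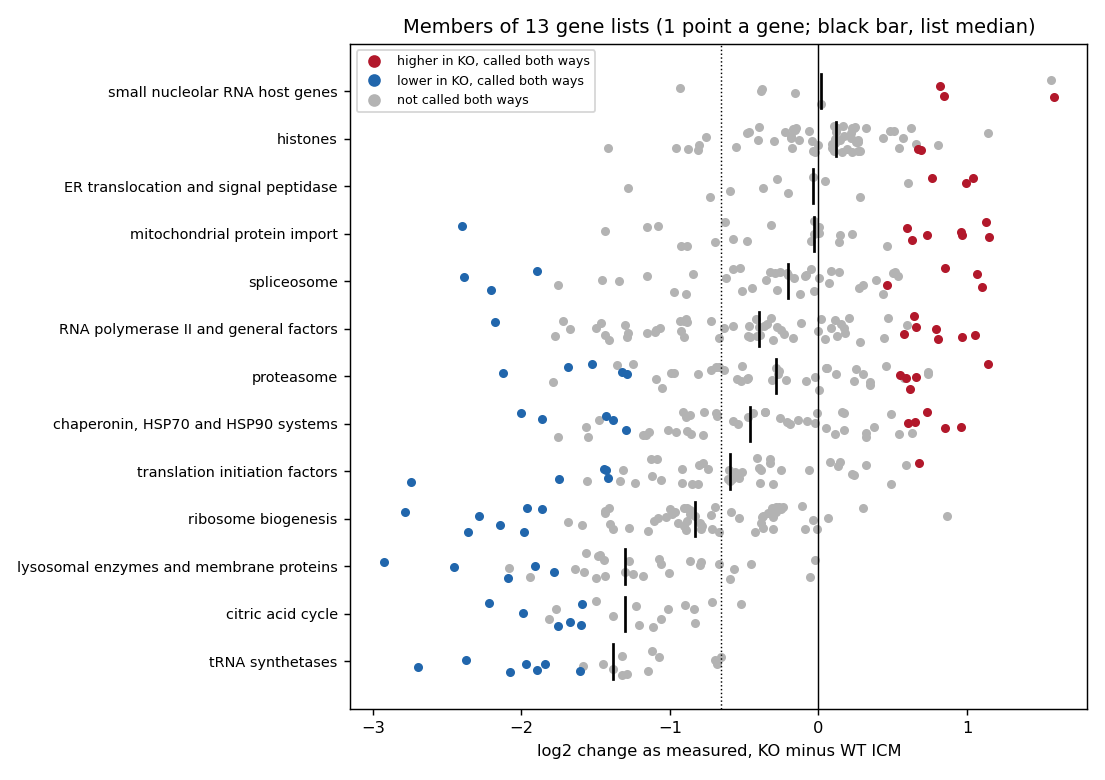
Log2 change as measured, KO minus WT ICM, of the tested members of 13 lists. Each point is a gene, coloured where it was called both ways, the black bars are list medians, the solid line is 0 and the dotted line the median of all tested genes, -0.65. The tRNA synthetases, the citric acid cycle and the lysosomal list have members called lower alone, and the proteasome has 5 called higher and 5 lower, a split that was 2 and 11 after quantile normalization.

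Lists of RNA synthesis and processing differed in direction. RNA polymerase II and the general factors had 11.3% higher both ways, against 3.44% of all tested genes, and 1.61% lower, against 5.14%. The other lists had at most 4 genes changed both ways in either direction. Of 62 genes for RNA polymerase II and the general factors, 7 rose both ways (4 to 8 without any single library, 4 without WT 1 or 4) and 1 fell, with 2 lower after quantile normalization, 2 lower after median ratio scaling and 1 higher and 0 lower without KO 1, 4 and 6. The 12 subunits of the polymerase, taken after the values were seen, had 5 higher both ways and ran from -1.28 (Polr2c) to 1.05 (Polr2i) as measured. Of these subunits there were 1 lower after quantile normalization and 1 higher without KO 1, 4 and 6. Polr2j, a small subunit of the polymerase, had 298, 430.3 and 512 FPKM in KO ICM, against 192, 249.7 and 292 FPKM in WT ICM. For Polr2j, every KO library lay above every WT library, with a log2 change of 0.81 (SE 0.17, adjusted p = 0.00379) as measured and 1.47 (SE 0.26, adjusted p = 0.00323) relative to the median gene. The gene that fell was Taf6, a subunit of TFIID, with -2.18 as measured and -1.52 relative. Counts lower both ways in the list were 0 to 3 without any single library, 0 without KO 6 or WT 1, 4 or 6 and 3 without KO 7. Of 43 spliceosome genes, 4 rose and 3 fell both ways, 1 and 1 without KO 1, 4 and 6. Modification of tRNA had 1 of 49 higher and 4 lower both ways, with 2 lower after quantile normalization, 2 lower under a single constant and 0 higher and 0 lower without KO 1, 4 and 6. Processing of the 3′ end and export had 1 of 21 higher and 3 lower, with 5 lower after quantile normalization, 6 lower after median ratio scaling and 0 higher and 1 lower without KO 1, 4 and 6. RNA polymerases I and III had 1 of 30 higher and 2 lower, Mediator 1 of 32 each way, and mRNA decay 0 of 40 higher and 1 lower, and each of these lists had 0 either way without KO 1, 4 and 6. The 4 spliceosome genes that rose are all among the 7 tested LSm genes, whose ring binds the end of U6 RNA and of decaying mRNA. Lsm7, a ring subunit, had 451, 582 and 824 FPKM in KO ICM, against 216, 255 and 315 FPKM in WT ICM. For Lsm7, every KO library lay above every WT library, with a log2 change of 1.10 (SE 0.16, adjusted p = 0.00184) as measured and 1.76 (SE 0.27, adjusted p = 0.00323) relative to the median gene. Export of mRNA had its helicase lower. Ddx39b, the helicase of the export complex, had 16.4, 40.4 and 75.2 FPKM in KO ICM, against 82.4, 124 and 146 FPKM in WT ICM. For Ddx39b, every KO library lay below every WT library, with a log2 change of -1.77 (SE 0.34, adjusted p = 0.00302) as measured and -1.11 (SE 0.24, adjusted p = 0.00622) relative to the median gene, and without KO 1, 4 and 6 it had -0.73 relative (adjusted p = 0.0556).

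Host genes of small nucleolar RNAs, long noncoding transcripts whose introns hold the guides of rRNA modification, had 3 of 9 higher both ways (2 to 4 without any single library) and 0 lower. Their median, 0.02 as measured and 0.68 relative (0.46 after quantile normalization, 0.30 without KO 1, 4 and 6), was -0.16 to 0.22 as measured without any single library and -0.03 without KO 1, 4 and 6, so its sign as measured was not kept. Snhg12, such a host, had 29.4, 77.6 and 119 FPKM in KO ICM, against 11.98, 19.2 and 38.01 FPKM in WT ICM. For Snhg12, the groups overlapped, with a log2 change of 1.59 (SE 0.32, adjusted p = 0.00326) as measured and 2.24 (SE 0.37, adjusted p = 0.00323) relative to the median gene. Gas5, another host, had 0.82 as measured and 1.48 relative and without KO 1, 4 and 6 0.60 as measured (adjusted p = 0.078) and 0.93 relative (adjusted p = 0.0601), and 0.32 relative (adjusted p = 0.204) after quantile normalization. The histone list likewise had a median just above 0, 0.12 as measured and 0.78 relative, and -0.07 to 0.40 as measured without any single library. Of 63 tested histone genes, 2 rose both ways (1 to 5 without any single library, 1 without KO 3 or 4 or WT 1, 2, 4 or 7 and 5 without KO 1, and 1 higher after quantile normalization and 0 higher without KO 1, 4 and 6) and 0 fell, and the 3.17% that rose is close to the 3.44% of all tested genes. Replication-dependent histone RNAs have no poly(A) tail, which SMART-seq2 primes on, and the median level over the list was 13.3 FPKM in WT ICM. H2afz, the variant H2A.Z found at promoters, with a poly(A) tail, had 1954, 2536 and 3214 FPKM in KO ICM, against 1052, 1754 and 2059.9 FPKM in WT ICM. For H2afz, the groups overlapped, with a log2 change of 0.67 (SE 0.17, adjusted p = 0.0108) as measured and 1.33 (SE 0.28, adjusted p = 0.00502) relative to the median gene, and without KO 1, 4 and 6 it had 0.59 as measured (adjusted p = 0.0665). It had 0.05 relative (adjusted p = 0.844) after quantile normalization.

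Of nucleotide synthesis, 9 of 19 genes were lower as measured, 3 lower both ways (2 to 4 without any single library, and 1 lower without KO 1, 4 and 6) and 0 higher, with medians of -1.14 as measured and -0.48 relative (-0.25 without KO 1, 4 and 6). DNA replication and repair lay near all tested genes in their counts both ways. Paics, an enzyme of purine synthesis, had 21.8, 55.4 and 121 FPKM in KO ICM, against 133, 192 and 227 FPKM in WT ICM. For Paics, every KO library lay below every WT library, with a log2 change of -1.68 (SE 0.31, adjusted p = 0.00266) as measured and -1.03 (SE 0.23, adjusted p = 0.00637) relative to the median gene. DNA replication had 16 of 47 lower as measured, 34.04% against 24.9% of all tested genes, and 3 both ways, 6.38% against 5.14% (2 to 5 without any single library, 5 without KO 6, and 5 lower after quantile normalization, 5 lower after median ratio scaling and 1 lower without KO 1, 4 and 6). Pola2, a subunit of DNA polymerase alpha, had 0.521, 1.999 and 6.19 FPKM in KO ICM, against 9.92, 14.8 and 17.5 FPKM in WT ICM. For Pola2, every KO library lay below every WT library, with a log2 change of -2.25 (SE 0.38, adjusted p = 0.00219) as measured and -1.59 (SE 0.37, adjusted p = 0.0081) relative to the median gene. DNA repair had 25 of 71 lower as measured, 35.2%, and 5 both ways, 7.04% (2 to 7 without any single library, 2 without WT 1, and 8 lower after median ratio scaling and 3 lower without KO 1, 4 and 6). Its relative median of -0.10 was 0.02 after quantile normalization and -0.40 after median ratio scaling. Ddb1, which serves the CUL4 ligase and the repair of ultraviolet damage, had 2.80, 10.7 and 30.7 FPKM in KO ICM, against 33.4, 62.2 and 92.1 FPKM in WT ICM. For Ddb1, every KO library lay below every WT library, with a log2 change of -2.26 (SE 0.43, adjusted p = 0.00297) as measured and -1.60 (SE 0.34, adjusted p = 0.00537) relative to the median gene. Rad54l, a motor of homologous recombination, had a log2 change of -2.28 (SE 0.41, adjusted p = 0.00232) as measured and -1.63 (SE 0.36, adjusted p = 0.00699) relative to the median gene.

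In mitosis, 3 of 49 genes were higher and 6 lower both ways. The count lower was 4 to 8 without any single library, and the list had 1 higher after quantile normalization, 3 lower under a single constant and 1 lower without KO 1, 4 and 6. Cks2, a small protein that binds cyclin-dependent kinases, had 1447, 2008 and 3217 FPKM in KO ICM, against 881, 986 and 1446 FPKM in WT ICM. For Cks2, every KO library lay above every WT library, with a log2 change of 1.004 (SE 0.19, adjusted p = 0.00298) as measured and 1.66 (SE 0.32, adjusted p = 0.00402) relative to the median gene. Cks2 had 0.42 relative (adjusted p = 0.0621) after quantile normalization. Cdc26, a small subunit of the anaphase-promoting complex, had 105, 132 and 218 FPKM in KO ICM, against 48.4, 72.4 and 99.3 FPKM in WT ICM. For Cdc26, every KO library lay above every WT library, with a log2 change of 0.97 (SE 0.22, adjusted p = 0.00543) as measured and 1.63 (SE 0.30, adjusted p = 0.00325) relative to the median gene. Kif22, a kinesin that moves chromosomes, had 1.94, 3.54 and 13.6 FPKM in KO ICM, against 19.3, 36.3 and 60.1 FPKM in WT ICM. For Kif22, every KO library lay below every WT library, with a log2 change of -2.31 (SE 0.41, adjusted p = 0.00232) as measured and -1.65 (SE 0.31, adjusted p = 0.00341) relative to the median gene. Of 24 genes of the kinetochore and centrosome, 4 were lower as measured, 16.7% against 24.9% of all tested genes. Both ways 3 were lower, 12.5% against 5.14%, and 0 higher, with 1 lower without KO 1, 4 and 6. The list median was -0.55 as measured and 0.11 relative, -0.15 after median ratio scaling. Haus4, a subunit of augmin, which branches spindle microtubules, had 3.63, 7.07 and 10.3 FPKM in KO ICM, against 13.4, 28.5 and 34.8 FPKM in WT ICM. For Haus4, every KO library lay below every WT library, with a log2 change of -1.80 (SE 0.31, adjusted p = 0.00222) as measured and -1.15 (SE 0.29, adjusted p = 0.0126) relative to the median gene.

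Chromatin remodellers and deacetylases were lower about as often as all tested genes. Of 66 genes, 15 were lower as measured, 22.7% against 24.9% of all, and 4 both ways, 6.06% against 5.14% (2 to 5 without any single library, 2 without KO 2, and 2 lower under a single constant and 2 lower without KO 1, 4 and 6), and 0 were higher both ways. Ruvbl2, an ATPase of the INO80 and TIP60 complexes, had 25.4, 30.9 and 96.9 FPKM in KO ICM, against 80.9, 159 and 288 FPKM in WT ICM. For Ruvbl2, the groups overlapped, with a log2 change of -1.89 (SE 0.33, adjusted p = 0.00222) as measured and -1.23 (SE 0.28, adjusted p = 0.00786) relative to the median gene. Smarcb1, a core subunit of the BAF remodellers, had 0.0993, 12.5 and 39.9 FPKM in KO ICM, against 41.7, 63.4 and 82.4 FPKM in WT ICM. For Smarcb1, every KO library lay below every WT library, with a log2 change of -2.44 (SE 0.57, adjusted p = 0.00654) as measured and -1.79 (SE 0.50, adjusted p = 0.0229) relative to the median gene. Smarcb1 had -2.04 relative (adjusted p = 0.0776) with a pseudocount of 0.1. Of 11 genes for the H3K4 methyltransferase complexes, the partners of Rbbp5, 2 fell both ways (1 to 2 without any single library, 1 without KO 1, 2, 4 or 7 or WT 1, 4, 6 or 7, and 1 lower under a single constant and 1 lower without KO 1, 4 and 6). The median was -0.18 as measured and 0.48 relative, 0.08 relative after median ratio scaling, with 0.02 as measured without KO 1, 4 and 6. Of 31 Polycomb and H3K9 repressor genes, Cbx3, an HP1 protein that binds methylated H3K9, rose both ways (0 such genes without WT 1 or without KO 1, 4 and 6) and 0 fell.

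Among the lists of blastocyst lineages, that of the trophectoderm was the 1 with genes changed both ways. Core and formative pluripotency had 0 of 13 genes called in either form by limma, with 0 as measured and 1 relative at an unadjusted p under 0.05. Naive pluripotency and the primitive endoderm list had 2 of 12 and 3 of 14 lower as measured, shares below the 24.9% of all tested genes, and 0 changed both ways. Of 16 tested trophectoderm genes, 3 were lower both ways (3 to 4 without any single library), and Sct, the hormone secretin, was higher (0 to 1 without any single library, 0 without KO 1 or 3 or WT 1 or 6), with 0 higher without KO 1, 4 and 6. Tead4, a transcription factor of the trophectoderm, had 0.0304, 1.41 and 6.22 FPKM in KO ICM, against 6.16, 6.97 and 13.998 FPKM in WT ICM. For Tead4, the groups overlapped, with a log2 change of -2.21 (SE 0.43, adjusted p = 0.00321) as measured and -1.55 (SE 0.37, adjusted p = 0.0093) relative to the median gene. Cldn4, a claudin of its tight junctions, had 0.167, 0.350 and 2.50 FPKM in KO ICM, against 2.59, 6.66 and 88.1 FPKM in WT ICM. For Cldn4, every KO library lay below every WT library, with a log2 change of -2.97 (SE 0.58, adjusted p = 0.003) as measured and -2.31 (SE 0.53, adjusted p = 0.00786) relative to the median gene. Without WT 1, the library with the highest trophectoderm markers, the log2 changes of Tead4 and Cldn4 were -2.10 and -2.50 as measured and both stayed called. The third of the list, the epithelial factor Elf3, had -2.41 as measured and -1.75 relative. Gata3, another trophectoderm factor, had -2.46 as measured (adjusted p = 0.0216) and -1.91 (adjusted p = 0.0488) without WT 1, and did not pass relative to the median gene (-1.80, adjusted p = 0.0851). Krt8, a keratin of the trophectoderm, was lower as measured only, and did not pass relative to the median gene. As measured it had -1.85 (adjusted p = 0.0334), and -1.41 (adjusted p = 0.0759) without WT 1. Its call also ended without KO 3 or 4 or WT 2 or 4. Of the 24 trophectoderm genes in the table, 3 were at 0 in every KO library and 0 in every WT library. Summed over the 24, KO libraries had 436 to 4133 FPKM and WT libraries 591 to 2191 FPKM, sums in which Ly6a alone reached 3485 FPKM in a KO library and 918 FPKM in a WT library. Cdx2, the factor that defines the trophectoderm, was at 0.437 FPKM or less in KO ICM. In WT ICM it had 4.20 FPKM in WT 1 and at most 1.12 FPKM in the other libraries.

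Other genes that changed both ways serve the cell surface, the cytoskeleton and cell survival. Mfge8, a secreted protein that bridges dying cells to phagocytes, had 7.43, 12.3 and 31.3 FPKM in KO ICM, against 35.5, 76.8 and 121 FPKM in WT ICM. For Mfge8, every KO library lay below every WT library, with a log2 change of -2.18 (SE 0.38, adjusted p = 0.00222) as measured and -1.53 (SE 0.30, adjusted p = 0.00408) relative to the median gene. Cyr61, a matrix protein known as a target of YAP and TEAD, had 0, 0.674 and 5.20 FPKM in KO ICM, against 5.74, 8.86 and 23.3 FPKM in WT ICM. For Cyr61, every KO library lay below every WT library, with a log2 change of -2.49 (SE 0.47, adjusted p = 0.00266) as measured and -1.84 (SE 0.37, adjusted p = 0.00422) relative to the median gene. The Hippo pathway list lay near all tested genes. Of its 23 genes, 6 fell as measured, 26.1% against 24.9% of all, and 1 both ways, 4.35% against 5.14%. Actin genes had 3 of 38 higher (2 to 4 without any single library) and 3 lower both ways (1 to 3 without any single library, 1 without KO 4 or 6 or WT 1, 4, 6 or 7), with 1 lower under a single constant and 1 higher and 0 lower without KO 1, 4 and 6. Myl12b, a light chain of nonmuscle myosin, had 108, 162 and 239.6 FPKM in KO ICM, against 68.2, 85.8 and 123 FPKM in WT ICM. For Myl12b, the groups overlapped, with a log2 change of 0.89 (SE 0.21, adjusted p = 0.00727) as measured and 1.55 (SE 0.28, adjusted p = 0.00323) relative to the median gene. Microtubule and motor genes had 7 of 41 higher and 0 lower both ways (2 lower after quantile normalization, 2 lower after median ratio scaling and 4 higher without KO 1, 4 and 6), but 4 of these are Dynlt1a, Dynlt1b, Dynlt1c and Dynlt1f, near-identical copies of a dynein light chain among which reads cannot be placed with certainty. Pdcd5, a small protein induced in apoptosis, had 522, 596 and 1143 FPKM in KO ICM, against 249.6, 316 and 409.6 FPKM in WT ICM. For Pdcd5, every KO library lay above every WT library, with a log2 change of 1.05 (SE 0.18, adjusted p = 0.00232) as measured and 1.70 (SE 0.29, adjusted p = 0.00323) relative to the median gene. Birc3, a ligase that inhibits apoptosis, had 0, 0.0366 and 1.36 FPKM in KO ICM, against 1.13, 5.84 and 9.28 FPKM in WT ICM. For Birc3, the groups overlapped, with a log2 change of -2.34 (SE 0.37, adjusted p = 0.00184) as measured and -1.68 (SE 0.36, adjusted p = 0.00564) relative to the median gene. Of 29 tested apoptosis genes, 2 rose both ways, 6.90% against 3.44% of all tested genes, and 1 fell, 3.45% against 5.14%. Without KO 1, 4 and 6 there were 1 higher and 1 lower. Txn1, thioredoxin, which reduces protein disulphides, had 908, 1438 and 1919 FPKM in KO ICM, against 569, 781 and 1019.6 FPKM in WT ICM. For Txn1, the groups overlapped, with a log2 change of 0.93 (SE 0.19, adjusted p = 0.00326) as measured and 1.59 (SE 0.31, adjusted p = 0.00402) relative to the median gene. Txn1 had 0.41 relative (adjusted p = 0.0576) after quantile normalization, and of its list, redox defence, 3 of 40 genes were higher and 2 lower both ways, with 0 higher after quantile normalization, 1 lower under a single constant and 1 higher and 0 lower without KO 1, 4 and 6.

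Changes went with gene span and with level, and the part of both in the list results was not tested. The median gene span was 6.31 kb for genes higher both ways and 17.6 kb for genes lower both ways, against 21.8 kb for all tested genes. By mean WT level, genes higher both ways had a median of 243 FPKM and genes lower both ways 25.3 FPKM, against 9.62 FPKM for all. Of the 187 higher both ways, 108 lay in the quintile of genes with the shortest span and 166 in the quintile with the highest WT level. The 280 lower both ways were spread more evenly, with 52, 70, 74, 53 and 29 from the shortest to the longest quintile for those with a known span. Median changes as measured were -0.45 in the shortest quintile, -0.76 in the middle quintile and -0.55 in the longest, so they did not fall steadily with span. By level they were -0.41 in the quintile with the highest level and -0.89 in the quintile next to it. The lowest quintile by level, up to 3.01 FPKM, also had -0.41, where the pseudocount of 1 understates changes. Transcript length was not used here.

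**Figure D5:**
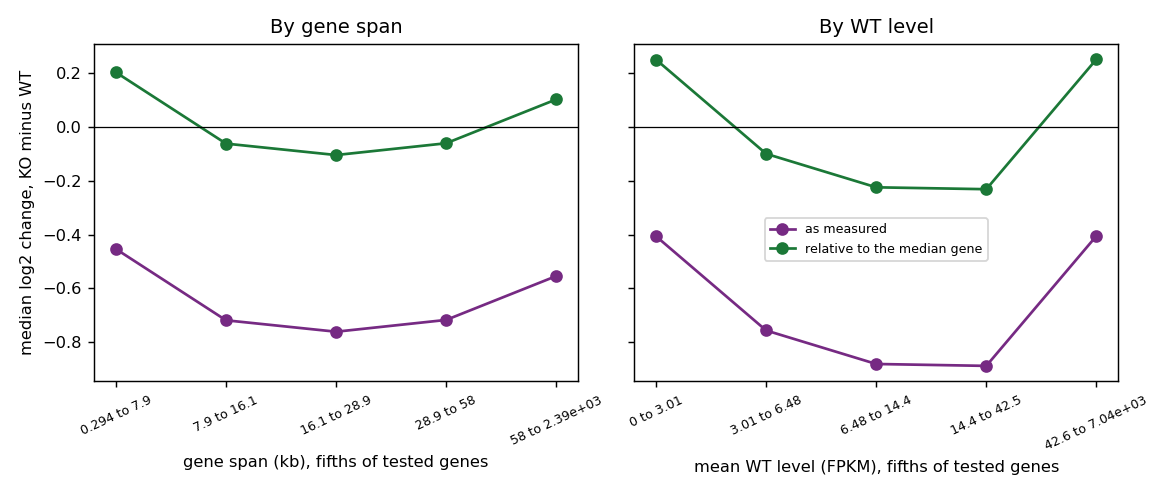
Median log2 change, KO minus WT ICM, over quintiles of the tested genes by gene span in kb (left) and by mean WT level in FPKM (right), as measured and relative to the median gene. As measured, the shortest genes had a median of -0.45, the middle quintile by span -0.76 and the longest genes -0.55. By level, the most and least abundant had -0.41 each, and the quintiles between them lay lower.

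The ICM changes were set against those of E5.5 epiblast, where 3 KO and 3 WT libraries were available. The difference between the KO effect in ICM and in E5.5 epiblast, each relative to its median gene, passed for 754 of 5917 genes (12.7%), 375 with the higher value in ICM and 379 with the lower. Without library offsets the split was 200 and 627. With a pseudocount of 0.1 there were 420 genes, and 433, 445, 469 and 487 without KO 1, WT 1, WT 2 or WT 3 of E5.5 epiblast. Of the 467 genes changed both ways in ICM, 160 were among them, 73 of those higher and 87 of those lower. Those genes were chosen for their change in ICM, which by itself raises the share that differs, so it is not set against the 12.7%. The tRNA synthetases had a median of -0.0019 relative at E5.5, and 0 of 19 differed between stages. For the citric acid cycle the E5.5 median was 0.18, and 4 of 20 genes differed. The lysosomal list had 0.79 at E5.5, and 10 of 31 differed. Ctsd, for instance, had 0.93 at E5.5, lower in ICM by a difference of -2.11 (adjusted p = 0.00349). Lsm7 had -0.10 at E5.5, a difference of 1.81 (adjusted p = 0.00487), and Gars had -0.42, a difference of -1.05 that did not pass (adjusted p = 0.13). Trophectoderm genes had a median of 4.36 at E5.5 and 0.07 in ICM (-0.26 after median ratio scaling), and 12 of 16 differed.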

How the data were processed

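RNA was measured in the 14 ICM libraries and 6 E5.5 epiblast libraries used here. The deposited values are FPKM per gene, made by the authors. Per the submitters' processing notes, the build was mm10 and the tools of the series included STAR 2.7.3, Trim Galore 0.6.4 and others, with no role given. How reads of similar genes were placed is not stated, and SMART-seq2 does not mark the strand, so overlapping genes cannot be told apart. Reads shared with processed pseudogenes may touch abundant genes such as Eef1b2 and Cks2. The table had 7186 lines. Of these 4 were left out because 2 gene names repeat, and 7182 genes were used. The methylation files were not used. FPKM gives no depth, so counting error is unknown. Labels give each library as a single embryo, so p-values measure the spread between embryos.

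Values were taken as log2(FPKM + 1), which understates changes of low genes. Testing covered genes whose mean over the 14 libraries reached 1 FPKM, with limma 3.58.1 in R 4.3.3 (trend, robust), and p-values were adjusted by Benjamini-Hochberg over all tested genes. Called means under 0.05. The relative fit first took from each library the median over tested genes of its log2 value minus the WT mean. The difference between stages was fitted over 20 libraries, with offsets within each stage. Detected genes were compared by an exact permutation test (scipy 1.17.1). The code was tested on simulated data.

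The comparison, its members, the 78 gene lists and the naming rule were chosen with earlier results of these data known. Named genes are, first, the 12 each way with the smallest relative p among genes called in both fits with at least 10 FPKM in the higher group. Up to 3 members of each list called in both fits, with no such floor, and the markers of the ICM lineages were added. Left out were respiratory chain and ribosomal protein genes, Y-linked genes, Xist, small RNA genes, pseudogenes and genes with predicted or clone names. Some genes that this rule selects are not reported here. Other genes are named in the text after their values were seen. Of the lists, 2 had no member in the table and 3 had fewer than 5 tested genes. The ribosomal proteins of mitochondria and the Zfp genes were not analysed here. Gene spans and promoters are from RefSeq (GRCm38.p6), in which 7152 genes matched 1 symbol.

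The alternatives were other pseudocounts, filters and scalings, non-robust variances, array weights, a sex covariate from Y-linked genes, the replicate number as a block, detected genes as a covariate, and leaving out libraries singly or KO 1, 4 and 6 together.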

Additional observations from a re-analysis of the deposited data

Results flagged for a closer look

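A sample stood far from the other 6 of its group, by the gap relative to the range on log2(FPKM + 1), in 11 of 328 groups of named genes, where chance alone marks about 1 in 20. In FPKM these were the highest KO library for Acaa1a (2.08) and Med21 (517); the lowest KO library for Gata6 (4.46) and Polr2j (298); the highest WT library for Atg4b (196); the lowest WT library for Fam151a (12.8), Farsa (7.97), Ifitm2 (31.7), Rad54l (2.39), Sesn2 (4.83) and Ttc32 (1.69).

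For 70 of 164 named genes the KO effect in ICM differed from that in E5.5 epiblast by limma's test of the difference, each effect relative to the median gene of its stage, against 12.7% of all 5917 genes tested for it. Most named genes were chosen for a strong effect in ICM, which by itself raises this share. Values are the ICM effect minus the E5.5 effect on the log2 scale. Higher in ICM than at E5.5, among genes of translation and RNA synthesis or processing, were Eef1b2 1.60, Btf3 1.31, Naca 1.39, Eif1 1.56, Trmt112 1.28, Lsm7 1.81, Polr2j 1.49, Polr2k 2.43, Znrd1 2.04, Snhg12 2.51 and Snhg5 2.36. Higher in ICM than at E5.5, among genes of mitochondria, redox defence and protein turnover, were Tomm7 2.10, Bola1 1.73, Bola3 1.91, Dnajc19 1.59, Sod1 1.79, Prdx1 2.69, Shfm1 1.87, Psma2 1.48, Sec61b 1.60, Sec61g 2.03 and Ost4 1.44. Higher in ICM than at E5.5, among genes of the cell cycle, chromatin, the cytoskeleton and other functions, were Cdc26 2.74, Cks2 1.91, H2afz 1.39, Myl12b 2.18, Dynlt1a 1.55, Dynlt1b 1.90, Dynlt1f 2.05, Ttc32 3.21, Prkcz 1.88, Pdcd5 2.09, Commd4 1.84, Ifitm2 4.38 and Ifitm3 4.38. Lower in ICM than at E5.5, among genes of lysosomes, membranes and metabolism, were Ctsd -2.11, Ctsz -3.36, Gaa -2.54, Atg4b -1.62, Vti1b -2.62, Snx17 -2.02, Sec23a -1.43, Ddost -1.57, Pdia3 -1.12, Acaa1a -1.89, Etfdh -2.61, Mecr -2.89 and Slc2a1 -3.17. Lower in ICM than at E5.5, among genes of translation, protein turnover and chromatin, were Eif2d -2.43, Cct7 -1.38, Psmd2 -1.69, Klhl22 -4.10, Ddb1 -1.97, Ash2l -1.94, Ruvbl2 -1.44, Ddx39 -1.73 and Tubg1 -1.73. Lower in ICM than at E5.5, among genes of trophectoderm, the cell surface and other functions, were Tead4 -4.66, Cldn4 -5.95, Gata3 -8.49, Krt8 -5.94, Krt18 -4.07, Cyr61 -3.56, Mfge8 -3.73, Fam151a -3.05, Rtkn -2.56 and Birc3 -2.56. Of the lineage markers called in neither fit, Esrrb -2.38, Fgf4 2.99 and Pou5f1 3.84 had these differences.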

How the results depend on the processing

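The 1540 calls as measured and 766 relative were 0 and 0 with detected genes as a covariate and 405 and 228 without KO 1, 4 and 6. Leaving out each library gave 946 to 1875 and 488 to 906, with 946 and 488 without WT 1 and 987 and 505 without WT 4. The other alternatives gave 1197 to 1595 and 566 to 1024, within 1.5 times. The 754 differences between stages were 420 with a pseudocount of 0.1, and 433 to 880 without each library, with 433 without KO 1 and 445, 469 and 487 without WT 1, 2 and 3 of E5.5 epiblast. The difference in detected genes was -1128 to -877 without each library and -1048 and -724 at 0.1 and 5 FPKM. Replicate numbers did not pair the samples, since same-number deviations correlated at -0.13 to 0.16, and with the number as a block 1221, 566 and 575 genes were called. Of 151 named genes changed both ways, 88 as measured and 80 relative kept their calls without KO 1, 4 and 6, and 116 relative with a single constant. Signs turned for Btf3 (-0.080) and Naca (-0.036) after quantile normalization, and with detected genes as a covariate for Arf1 (0.096 as measured, 0.10 relative), Ccnd3 (0.16, 0.17), F11r (0.43, 0.44), Gtf3a (0.014, 0.021), Rae1 (0.43, 0.44) and Slc2a8 (0.11, 0.11). As measured, the uncalled markers Gata4 (0.46), Gata6 (0.16) and Pdgfra (0.37) turned with that covariate, Gata4 (0.16) and Gata6 (0.071) without KO 1, 4 and 6, and Fgf4 (-0.054 without KO 1 to 0.59 without KO 4). The causes were not tested. The unknown depth limits what can be said of genes at low FPKM, most of all in KO 1, 4 and 6.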
